A study of Mus musculus with 6 samples.

Results

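The genes described here are 10 members of the BCL2 family: Mcl1, Bcl2l1, Bcl2, Bax, Bak1, Bid, Bcl2l11, Bbc3, Pmaip1 and Bad. They were taken as a named list, with earlier results of these data known. They are 10 of the 47643 gene identifiers in the count files, and 9 of them passed the filter on low counts, the exception being Pmaip1. The libraries came from 6 breast tumors that arose in an MMTV-PyMT strain, FVB/N-Tg(MMTV-PyVT)634Mul/J, in which the mouse mammary tumor virus promoter drives the polyoma middle T antigen in mammary epithelium. All tumors arose under this transgene and were treated with B20-4.1.1, which blocks VEGF-A of the mouse. It was given at 5 mg/kg into the peritoneum, 2 times per week for 6 weeks from 7 weeks of age. Cells with EPCAM and without CD45 at the surface were sorted, and their RNA was read by a 3′ method, which counts transcript ends. Untreated tumors were not analysed here, and the study's class of each tumor, high or low hypoxia, is not given by the labels. Every value is therefore given per tumor, and no groups of tumors were compared. The labels do not state that each sample came from an animal of its own, so p-values measure the spread between these 6 samples.

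The BCL2 family decides at the outer mitochondrial membrane whether a stressed cell lives or dies. Guardians (here Mcl1, Bcl2l1 and Bcl2) hold back the effectors Bax and Bak1, which otherwise form pores that release cytochrome c and start the caspase cascade. BH3-only proteins (here Bid, Bcl2l11, Bbc3, Pmaip1 and Bad) carry signals of damage, lost growth factors or stress, and bind guardians, effectors or both. In the mammary gland these genes are best known for the removal of milk-producing cells after weaning, and in breast tumors the guardians are drug targets. Much of the control lies in the proteins, through phosphorylation, cleavage and turnover, which RNA counts do not show.

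Members bind each other through the BH3 segment, and its letters are shown because guardians, effectors and BH3-only members all carry it. The longest coding sequence of each gene in GENCODE M21 (GRCm38) was translated and searched for a leucine, 3 residues of any kind, a glycine, alanine or serine, and an aspartate. Each of the 9 members printed below had 1 match, and each match lay within a single coding exon. The capitals mark the codons of the leucine, of the small residue and of the aspartate.
Mcl1, chr3:95659430-95659459, plus strand: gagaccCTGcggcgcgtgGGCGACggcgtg
Bcl2l1, chr2:152829700-152829729, minus strand: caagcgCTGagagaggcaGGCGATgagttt
Bcl2, chr1:106712578-106712607, minus strand: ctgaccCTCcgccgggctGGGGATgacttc
Bax, chr7:45466000-45466029, minus strand: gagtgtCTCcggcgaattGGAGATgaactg
Bak1, chr17:27022534-27022563, minus strand: cggcagCTTgctctcatcGGAGATgatatt
Bid, chr6:120897292-120897321, minus strand: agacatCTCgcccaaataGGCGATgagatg
Bcl2l11, chr2:128147144-128147173, plus strand: caggagCTGcggcggatcGGAGACgagttc
Bbc3, chr7:16313767-16313796, plus strand: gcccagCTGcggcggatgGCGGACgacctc
Bad, chr19:6950786-6950815, plus strand: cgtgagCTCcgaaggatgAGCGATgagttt
The small residue was a glycine in 8 of the 10 genes, an alanine in Bbc3 and a serine in Bad. The pattern is loose: 33.8% of 21782 coding genes hold it somewhere in their longest protein, and 13.2% hold the form with glycine. A match is thus a description of the letters and identifies no domain. For Pmaip1, the pattern was found at 2 places, and its sequence is not shown.

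Counts on genes totaled 2509482 to 5893246 per tumor, so that 3 counts, taken as the floor, correspond to 0.509 to 1.20 CPM (counts scaled to a common total of counts on genes). Tumor 2 had the fewest counts, the fewest genes detected (16074) and the largest share of reads given to no gene (41.4%). All 7 markers of luminal epithelium, Epcam among them, were present in all libraries and summed to 3957 to 4874 CPM. The library of tumor 1 stood apart, being the highest of the 6 for 34.2% of 12068 filtered genes. It lay apart as the highest for 10.7% of them, that is, its gap to the next tumor, relative to the range, exceeded Dixon's 95% critical value, and some tumor lay apart for 16.4% of them. The library of tumor 3 held the most leukocyte and erythroid RNA. Its 8 leukocyte markers summed to 224.8 CPM, against 15.95 to 51.3 CPM in the other 5, and its 4 erythroid markers to 863.7 CPM, against 5.66 to 69.4 CPM. Of these lists, 7 of 8 and 4 of 4 genes were highest in tumor 3, while Ptprc, the gene of CD45, reached at most 18 counts in a tumor and Cd3e at most 4. Endothelial and fibroblast markers summed to at most 3.88 and 18.9 CPM. In sorted bulk samples, fewer cells of a type and less RNA per cell cannot be told apart.

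Transcripts of the guardians outnumbered those of the effectors in every tumor, Mcl1 led in 4 of the 6, and Pmaip1 was close to the floor. The 10 genes together took 659.6 to 849.4 CPM, with a median of 743.3 CPM. Guardians summed to 361.2 to 458.7 CPM, effectors to 36.6 to 74.8 CPM, and the 5 BH3-only genes to 238.9 to 381.6 CPM. The ranges of guardians and effectors did not overlap, and those of guardians and BH3-only genes did.

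**Figure D1:**
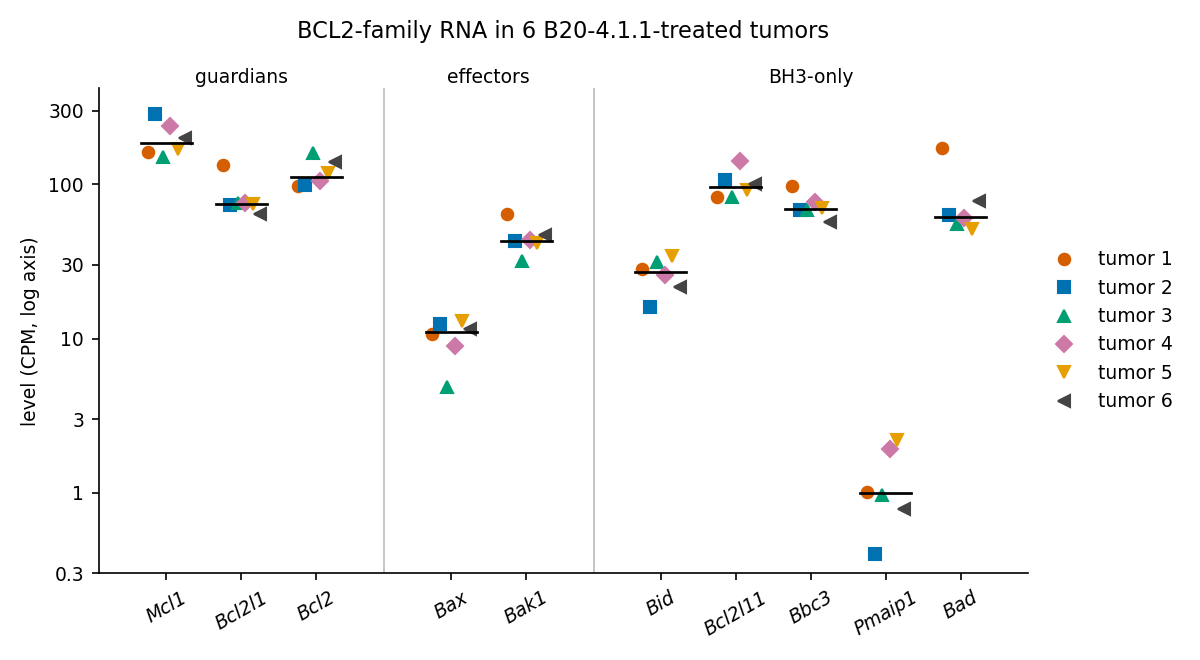
Level of each gene in CPM (log axis) in the 6 tumors, with genes in their roles from left to right. Each symbol is a tumor and each line the median of the 6. Mcl1 has the highest median (184.6 CPM), Pmaip1 the lowest (0.994 CPM), and tumor 1 lies above the other 5 for Bcl2l1 and Bad.

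Mcl1 (ENSMUSG00000038612, chr3:95658788-95663176, plus strand) encodes a guardian whose protein and mRNA are both short-lived. Its level was 161.5, 287.3, 149.6, 237.6, 168.5 and 200.7 CPM in tumors 1 to 6, a mean of 200.9 ± 52.99 CPM (SD, n = 6). Tumor 2 was the highest and tumor 3 the lowest, 1.92-fold apart, with tumor 4 next to the top. Its mean level lay at percentile 96.4 of the 21611 genes with a symbol and a count, the highest place of the 10.

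Bcl2l1 (ENSMUSG00000007659, chr2:152780668-152831728, minus strand) encodes BCL-XL, a guardian long tied to the survival of mammary epithelium. Its level was 133.7, 72.9, 75.2, 75.9, 74.1 and 64.2 CPM in tumors 1 to 6. Tumor 1 thus lay apart from 5 tumors that were close to one another, and without it the highest was 1.18-fold above the lowest, the narrowest such range of the 10 genes. The 3′ reads do not separate the long and short splice forms of Bcl2l1 or Mcl1, whose proteins act in opposite directions.

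Bcl2 (ENSMUSG00000057329, chr1:106538178-106714274, minus strand), the founding guardian, ranged from 97.7 CPM in tumor 1 to 159.3 CPM in tumor 3, with a median of 111.6 CPM. The tumor with the most Bcl2 was the one with the most leukocyte and erythroid RNA. The part of those cells in the Bcl2 level was not tested. Without tumor 3, the highest was 138.6 CPM, in tumor 6, where the leukocyte and erythroid markers summed to 38.7 and 5.66 CPM. On the opposite strand, D630008O14Rik overlaps 558 exonic bases of Bcl2, none of them in its last 300 bases.

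The guardians were present in different proportions from tumor to tumor. Mcl1 made up 41.1, 62.6, 39.0, 56.8, 46.7 and 49.7% of guardian counts in tumors 1 to 6. Bcl2 was the largest share in tumor 3 only, at 41.5%, and Bcl2l1 reached 34.02% in tumor 1 against 15.9 to 20.5% elsewhere. The ratio of Mcl1 to Bcl2l1 ran from 1.21 in tumor 1 to 3.94 in tumor 2, with a median of 2.70. Counts per exon length gave Mcl1 a median share of 64.9% and a median ratio to Bcl2l1 of 3.62.

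**Figure D2:**
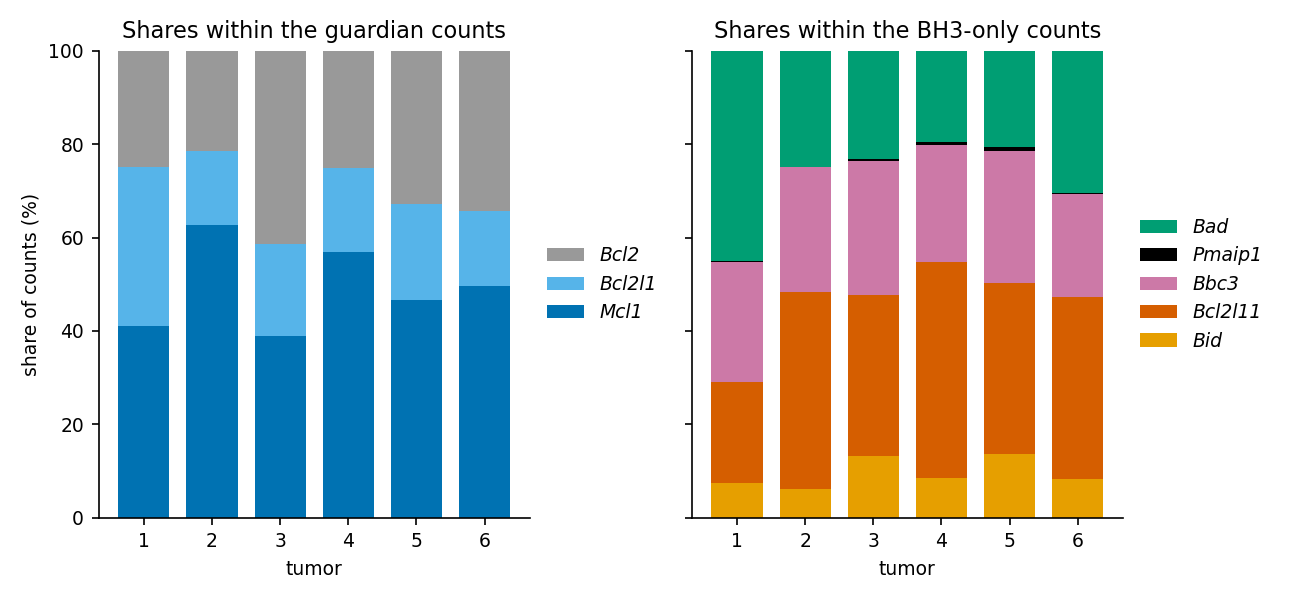
Share of each gene in the guardian counts (left) and in the BH3-only counts (right) of each tumor, in percent. Bcl2l1 (34.02%) and Bad (45.04%) took their largest shares in tumor 1, Mcl1 (62.6%) in tumor 2 and Bcl2 (41.5%) in tumor 3.

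Of the effectors, Bak1 was counted more often than Bax in all 6 tumors, by 3.23 to 6.55-fold. Bax (ENSMUSG00000003873, chr7:45461697-45466898, minus strand), the effector that moves from the cytosol to mitochondria, had 10.7, 12.4, 4.85, 8.93, 12.98 and 11.5 CPM in tumors 1 to 6. These rest on 20 to 65 counts per tumor, and tumor 3, with 20 counts, was the lowest by a wide step. Bak1 (ENSMUSG00000057789, chr17:27019810-27029009, minus strand), which sits in the mitochondrial membrane, ranged from 31.8 CPM in tumor 3 to 64.1 CPM in tumor 1, with a median of 43.1 CPM. Both effectors were therefore lowest in tumor 3, and their summed counts relative to the guardians were lowest there, at 0.0953, and highest in tumor 1, at 0.190 (median 0.135). Per exon length, the median of this ratio was 0.274. Gm45808 shares 192 exonic bases with Bax on the same strand, none of them in the last 300 bases of Bax, and Ggnbp1 lies opposite 614 exonic bases of Bak1.

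The BH3-only genes spanned the widest range of levels. Bcl2l11 (ENSMUSG00000027381, chr2:128126038-128162547, plus strand) encodes BIM, which is induced when growth factors are withdrawn. It had 82.5, 106.8, 82.2, 142.3, 91.3 and 99.96 CPM in tumors 1 to 6, with tumor 4 above the rest. It was the largest BH3-only share in 5 of 6 tumors, 34.4 to 46.3% there, and made up 21.6% in tumor 1, where Bad led. This lead held by counts and turned per exon length, where the median share was 15.8% for Bcl2l11 and 42.7% for Bbc3. On that scale Bbc3 was 2.76-fold and Bad 2.30-fold above Bcl2l11, each in 6 of 6 tumors (adjusted p = 0.0380, exact sign-flip test). The turn comes from the annotated exon lengths, 8029 bases for Bcl2l11, 2124 for Bbc3 and 2558 for Bad, which shift the ratio equally in every tumor. The test therefore cannot say which scale is right.

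Bbc3 (ENSMUSG00000002083, chr7:16308393-16318205, plus strand) encodes PUMA, a direct target of p53. It ranged from 57.0 CPM in tumor 6 to 97.9 CPM in tumor 1, with a median of 69.4 CPM. Its share of the BH3-only counts was the steadiest of the 5 genes among those above the floor, 22.2 to 28.7%.

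Bad (ENSMUSG00000024959, chr19:6941861-6951899, plus strand) is a BH3-only gene whose protein is switched off by growth factor kinases. It had 171.9 CPM in tumor 1 and 62.96, 55.5, 60.2, 51.5 and 78.1 CPM in tumors 2 to 6. This was the widest spread among the 9 filtered members, 3.34-fold from lowest to highest, and 1.52-fold without tumor 1. Bad made up 45.04% of the BH3-only counts in tumor 1 and 19.6 to 30.4% in the other tumors. Gpr137 lies opposite 524 of its exonic bases.

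Bid (ENSMUSG00000004446, chr6:120891930-120916853, minus strand) encodes the protein that caspase-8 cuts to link death receptors to mitochondria. It had 28.3, 15.9, 31.5, 26.0, 34.1 and 21.5 CPM in tumors 1 to 6, lowest in tumor 2 and highest in tumor 5. Bcl2l13, on the other strand, covers the 300 bases at the furthest annotated 3′ end of Bid, and its own level was 26.6 to 40.2 CPM. The libraries are directional, but whether counting used the strand is not given in the sources used here, so reads of this pair are uncertain.

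Pmaip1 (ENSMUSG00000024521, chr18:66458533-66465565, plus strand) encodes NOXA, a BH3-only protein that binds MCL1 and marks it for degradation. It was represented by 6, 1, 4, 9, 11 and 4 counts in tumors 1 to 6, or 1.02, 0.399, 0.970, 1.91, 2.20 and 0.781 CPM. The exact 95% Poisson intervals of all 6 overlapped, from 0.0101 to 2.22 CPM in tumor 2 and from 1.10 to 3.93 CPM in tumor 5, which covers counting error only. No tumor was thus set off from another by these intervals, and Pmaip1 made up at most 0.881% of the BH3-only counts.

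The order of the levels was compared within tumors by the log2 ratio of counts, with a two-sided exact sign-flip test over 6 tumors and Benjamini-Hochberg adjustment over all 45 pairs. The smallest p that 6 tumors allow is 0.03125. In 33 pairs one gene was higher in every tumor, each with p = 0.03125 in the exact test and adjusted p = 0.0426. The upper part of the order was not resolved: of the neighbours by median CPM, Mcl1 was 1.66-fold above Bcl2 in 5 of 6 tumors (exact p = 0.0625, adjusted 0.0740), and Bcl2 was 1.19-fold above Bcl2l11 in 4 of 6 (exact p = 0.281, adjusted 0.294). Bcl2l11 over Bcl2l1 (1.24-fold, 5 of 6, adjusted p = 0.268 in the exact test) and Bcl2l1 over Bbc3 (1.11-fold, 5 of 6, adjusted p = 0.0740 in the exact test) also did not differ beyond their spread, nor did Bbc3 and Bad (adjusted p = 0.938 in the exact test). Below them the order held in 6 of 6 tumors: Bad was 1.64-fold above Bak1, Bak1 1.73-fold above Bid, Bid 2.59-fold above Bax and Bax 8.25-fold above Pmaip1.

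A 3′ count is about 1 read per transcript end, but levels of different genes are also given per exon length (TPM), since the library type does not remove every effect of length. The order by median was then Mcl1 (134.0 TPM), Bbc3 (83.3), Bad (63.4), Bak1 (47.2), Bcl2l1 (41.7), Bcl2 (31.3), Bcl2l11 (29.6), Bid (19.9), Bax (17.7) and Pmaip1 (0.926). Mcl1 first and Pmaip1 last were common to both scales, while the long-transcript genes Bcl2 and Bcl2l11 moved down. Dividing by length shifts the log2 ratio of a pair by the same amount in every tumor, so changes of order between the scales come from annotated lengths. On the per-length scale 37 of 45 pairs passed the same test, 30 pairs passed on both scales, and 29 of these had the same order. The remaining pair was Bcl2l11 and Bak1, with Bcl2l11 2.24-fold higher by counts and Bak1 1.49-fold higher per length, each in 6 of 6 tumors. Bid and Bax, 2.59-fold apart by counts, were 1.15-fold apart per length and did not differ beyond their spread (adjusted p = 0.639, exact sign-flip test). Among neighbours per length, Mcl1 over Bbc3, Bad over Bak1, Bcl2l11 over Bid and Bax over Pmaip1 held in 6 of 6 tumors.

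Tumors differed in these genes by more than read sampling. A chi-square test of each gene's 6 counts against TMM-scaled library sizes called 89.4% of 12088 filtered genes at an adjusted p under 0.05, and all 9 filtered members were among them, a share close to this background. The chi-square per degree of freedom was 130.6 for Bad, 63.7 for Mcl1, 36.7 for Bcl2l1, 26.9 for Bcl2l11, 25.1 for Bcl2, 13.2 for Bak1, 10.5 for Bbc3, 4.395 for Bax and 4.28 for Bid, against a median of 11.2 over all genes. Bad and Mcl1 thus stood highest, and Bax and Bid, with the fewest counts, lowest. Against genes of similar abundance, the tagwise dispersion of edgeR relative to its trend placed Bad at percentile 85.3, Mcl1 at 49.6 and Bbc3 lowest, at 14.6.

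The spread of Bcl2l1 and Bbc3 was beyond counting noise only with tumor 1 included. Without tumor 1 the same test called 75% of genes, and 7 of the 9 members. Bcl2l1 then had a chi-square per degree of freedom of 0.245 (adjusted p = 0.920) and Bbc3 one of 1.77 (adjusted p = 0.157), so no difference beyond counting noise was called among the 5 other tumors in either. Mcl1 was at 63.6 and Bad at 15.2. Without tumor 3 the test called 87.6% of genes and 8 members, Bax being the exception, with 1.33 (adjusted p = 0.269).

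**Figure D3:**
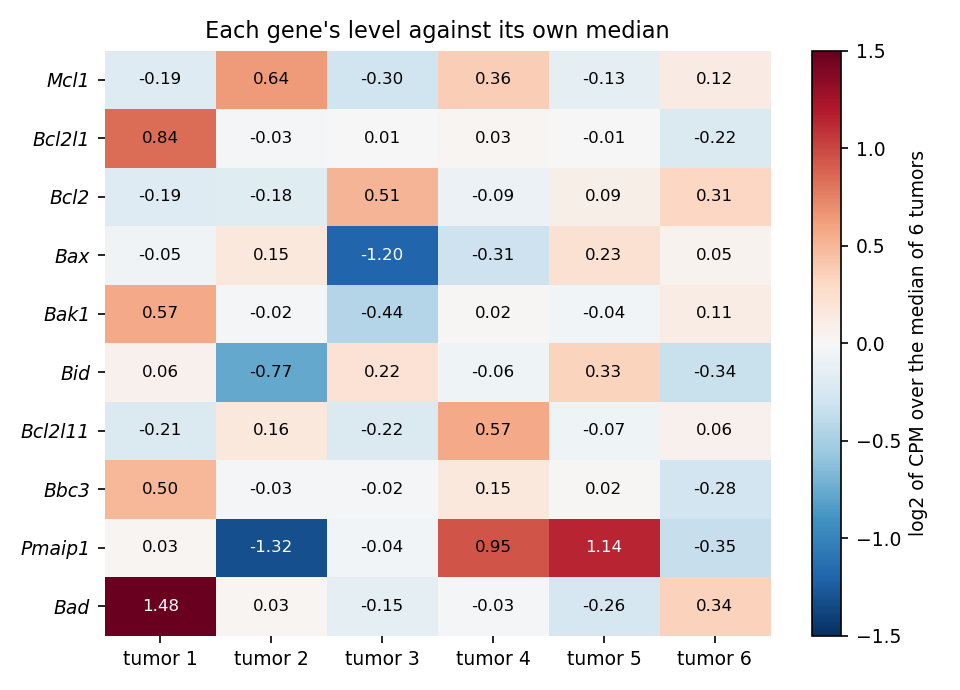
Log2 of the level of each gene (rows) in each tumor (columns) over the median of that gene in the 6 tumors. Red is above and blue below the median. Tumor 1 is high for Bad (1.48), Bcl2l1 (0.84), Bak1 (0.57) and Bbc3 (0.50), tumor 3 is low for Bax (-1.20), and Pmaip1 swings most on the fewest counts.

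The genes did not share one profile across tumors. Bcl2l1, Bak1, Bbc3 and Bad were highest in tumor 1, 4 of the 9 filtered members, against 34.2% of all filtered genes. Mcl1 peaked in tumor 2, Bcl2 in tumor 3, Bcl2l11 in tumor 4, and Bax and Bid in tumor 5, as did Pmaip1. For Bcl2l1 and Bad the gap of tumor 1 to the next tumor was 0.832 and 0.779 of the range, beyond Dixon's critical value, as it was for 10.7% of all filtered genes. The part of that library's general difference in these values was not tested. The marker sums of tumor 1 were within those of the other tumors for leukocyte, endothelial, fibroblast, erythroid, basal and luminal genes. Single luminal markers differed from their sum. Krt8 (616.8 CPM, median 276.0), Cldn3 (638.4 CPM, median 280.6) and Krt19 (319.0 CPM, median 275.5) were highest in tumor 1. Epcam, Krt18, Cdh1 and Cldn7 were highest in other tumors.

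The study asks how tumor cells answer the hypoxia that antiangiogenic treatment can cause, so each gene was set against the hypoxia score of the study's methods, the mean TPM of Vegfa, Slc2a1 and Car9. The score was 48.5, 37.2, 51.4, 76.6, 94.4 and 47.3 TPM in tumors 1 to 6. Slc2a1 was the largest term of this mean in every tumor. Its level was lowest in tumor 2, at 69.15 TPM, against 114 TPM in tumor 1. Vegfa and Car9 were lowest in tumor 1, at 21.7 and 9.81 TPM, against 29.6 and 12.75 TPM in tumor 2. The place of tumor 2 as the lowest score thus rests on Slc2a1. No member was called: edgeR's quasi-likelihood test of the slope on log2 score, adjusted over 12085 genes, called 0 genes, or 0% of those tested. At an unadjusted p under 0.05 it found 510 genes and 0 of the 9 members, and DESeq2 called 15 genes, again with 0 members.

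Among guardians, the slope was -0.31 ± 0.37 (SE) for Mcl1, -0.19 ± 0.38 for Bcl2l1 and -0.07 ± 0.36 for Bcl2, in log2 of level per log2 of score. Each was smaller than its standard error. Without tumor 2, the slope of Mcl1 was 0.14, of the opposite sign. Among effectors, it was -0.01 ± 0.47 for Bax and -0.18 ± 0.36 for Bak1. Every adjusted p of a member was at least 0.954 (edgeR), so neither guardians nor effectors showed a slope that these 6 tumors could resolve, which does not show that they have none.

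Among BH3-only genes, Bid had the largest positive slope and Bad the largest negative one. Bid had 0.49 ± 0.34 (SE), adjusted p = 0.954 in edgeR. Its slope stayed positive under every alternative, from 0.28 without tumor 2 to 0.61 without tumor 4. The lowest level of Bid lay in the tumor with the lowest score, tumor 2, and the highest in the tumor with the highest score. Tumor 2 was also the library with the fewest counts, and tumor 1, not tumor 2, was the lowest in Vegfa and Car9. Pearson's r with log2 score was 0.731 (exact permutation p = 0.0958, n = 6) and Spearman's rho 0.829 (exact permutation p = 0.0583, n = 6). Without tumors 4 and 5, the 2 farthest from the median score, r was 0.984. The scores left were 37.2 TPM in tumor 2 and 47.3 to 51.4 TPM in the others, so this r leans on tumor 2. The same step moved r unevenly for other members: -0.34 to -0.92 for Mcl1, 0.11 to -0.73 for Bcl2l11, -0.07 to 0.51 for Bcl2 and -0.03 to 0.06 for Bbc3. Bad had -0.70 ± 0.54, adjusted p = 0.954 in edgeR, and -0.34 ± 0.28 without tumor 1. With the prefix of the sample code as a term (4 tumors and 2 tumors), the slope of Bad was -1.31 ± 0.47 and that of Bid 0.49 ± 0.41, both with adjusted p = 0.889 in edgeR. Over all alternatives the lowest adjusted p in edgeR or DESeq2 was 0.494 for Bad, with the score as a mean of log2 CPM, and 0.652 for Bid, without tumor 1. Bcl2l11 (0.09 ± 0.36) and Bbc3 (-0.03 ± 0.33) were flat within their errors.

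**Figure D4:**
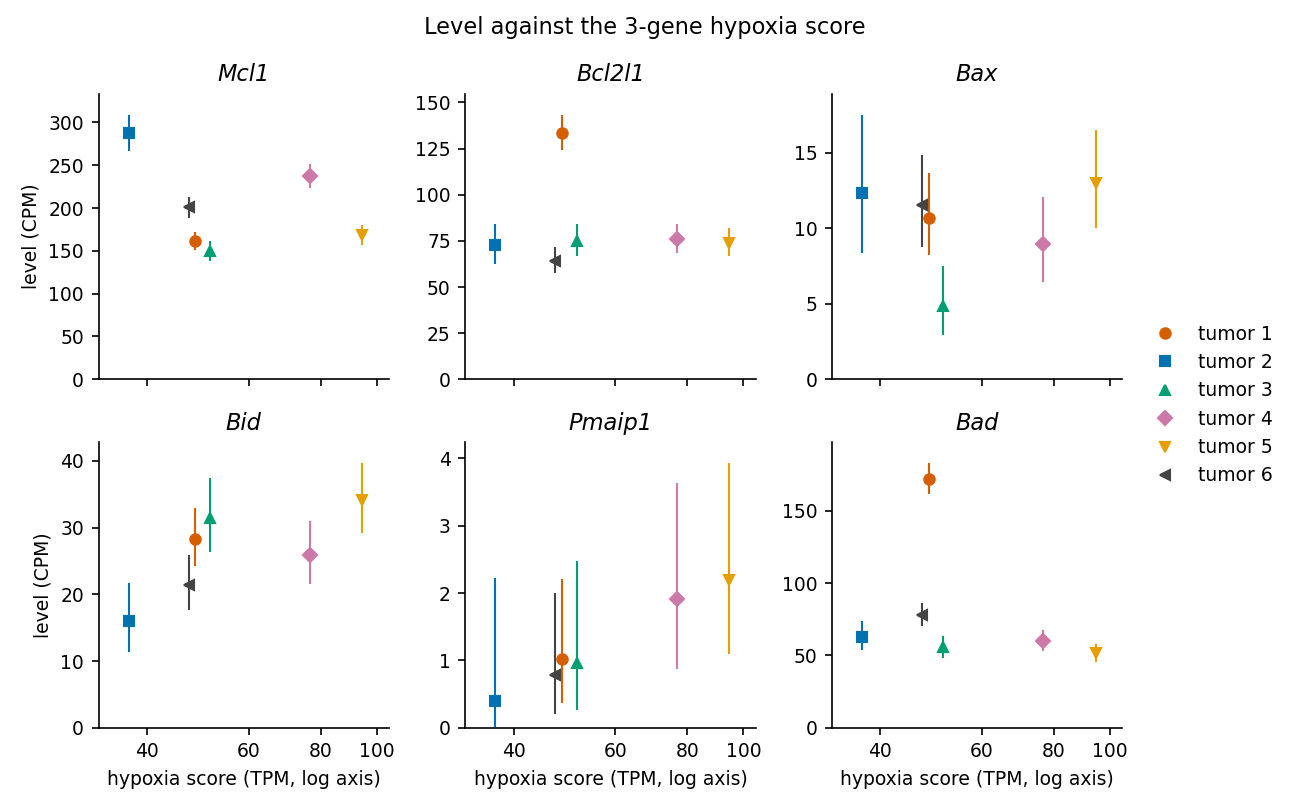
Level in CPM against the hypoxia score in TPM (log axis) for 6 of the genes. Each symbol is a tumor and each bar the exact 95% Poisson interval of its count. Bid runs from 15.9 CPM at the lowest score to 34.1 CPM at the highest, Pmaip1 rests on 1 to 11 counts, and tumor 1 lies above the others for Bcl2l1 and Bad.

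Pmaip1 followed the score most closely, on the fewest counts. Its 1 count came from tumor 2, which had the lowest score but not the lowest Vegfa or Car9. Its 9 and 11 counts came from the pair with the highest scores. Over the 10 members, r of log2(TMM-scaled CPM + 1) with log2 score ran from -0.43 for Bad to 0.987 for Pmaip1 (exact permutation p = 0.00417, n = 6; rho = 0.943, exact permutation p = 0.0167, n = 6), with p-values not adjusted for the 10 correlations. Without tumors 4 and 5, the 2 farthest from the median score, r for Pmaip1 was 0.964. Tumor 2 then still held both the lowest score and the 1 count, so this r leans on it. In a fit without the filter on low counts, which takes the size of the counts into account, its slope was 1.496 ± 0.837 (SE), with an adjusted p of 0.747 over all genes (edgeR). The relation thus did not pass the test across genes.

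**Figure D5:**
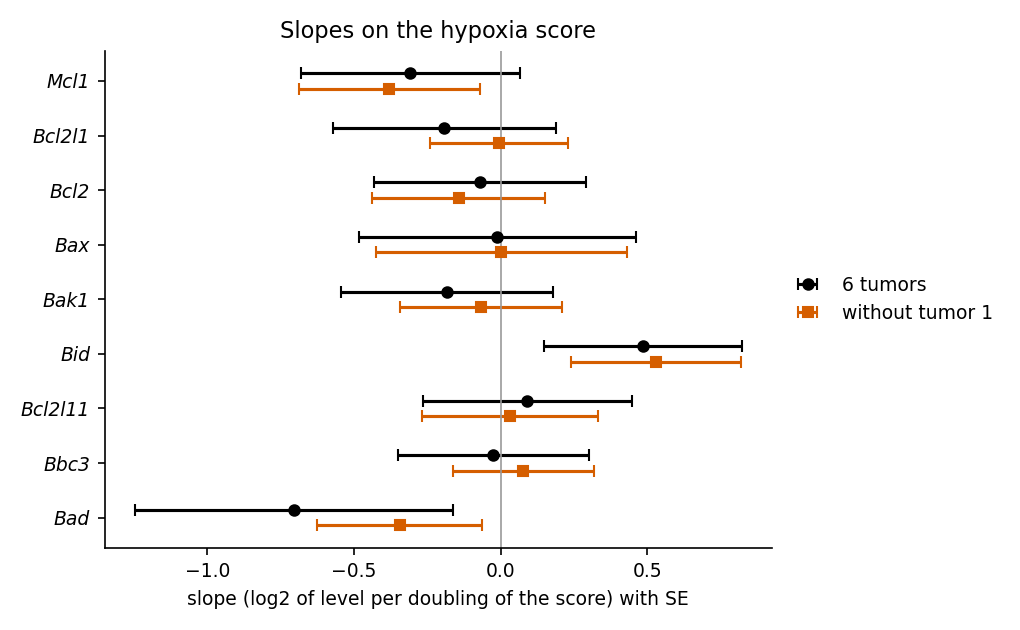
Slope of each filtered member on the hypoxia score, in log2 of level per log2 of score, with its standard error. Circles are fits to all 6 tumors and squares fits without tumor 1. Bid lies right of 0 in both (0.49 and 0.53) and Bad left of 0 in both (-0.70 and -0.34), none past the test.

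ACGTG, 1 form of the core of the hypoxia response element, or its reverse complement CACGT was sought in the RefSeq promoter windows of the members. Windows of 9 members were found, 15 in all, and 2 of them held this form, 1 of Bax and 1 of 3 of Bbc3. Over all 32851 windows of the same length the share was 19.6%. These matches describe letters near the start sites and nothing about binding.

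Bax, Bbc3 and Pmaip1 are textbook targets of p53, and Mcl1 is an early response gene, so their levels were related to lists of such genes in a family of 4 correlations over the 6 tumors. Bax (r = 0.249, exact permutation p = 0.696, n = 6) and Bbc3 (r = 0.363, exact permutation p = 0.535, n = 6) showed no resolved relation to the mean of 15 genes of the p53 pathway, with rho of 0.143 (exact permutation p = 0.803) and 0.600 (exact permutation p = 0.242). For Bax, r was 0.171 without tumors 4 and 5, the 2 tumors farthest from the median of the list, and for Bbc3 it was 0.997 with 4 tumors left. Of those 4, tumor 1 had the highest list mean (4.81 against 4.59 to 4.63) and the highest Bbc3 (97.9 against 57.0 to 68.6 CPM). The r of 0.997 thus leans on tumor 1. Pmaip1 had r = 0.886 (exact permutation p = 0.0139, adjusted 0.0556, n = 6) and rho = 0.829 (exact permutation p = 0.0583), but r fell to 0.331 without the 2 farthest tumors, so the relation rests on those. Tumors 4 and 5 also had the highest hypoxia scores (76.6 and 94.4 TPM) and the most Pmaip1 counts (9 and 11). Whether the relation of Pmaip1 to this list is separate from that to the score was not tested. Mcl1 had r = 0.877 with 12 immediate early genes (exact permutation p = 0.0444, adjusted 0.0889, n = 6) and rho = 0.771 (exact permutation p = 0.103), with r = 0.757 without the 2 farthest tumors. No relation passed the adjustment over the 4, and prefix groups of 4 and 2 tumors are too small for a correlation within them.

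The immediate early genes, which cells switch on within minutes of a stimulus or of dissociation, were abundant: their sum was 4520 to 8204 CPM and highest in tumor 2, where Mcl1 was highest. Ier3 (952.5 to 2278 CPM), Egr1 (701.3 to 955.6 CPM) and Klf6 (195.5 to 1197 CPM) led the list. Of the 12 genes, 0 rose and 0 fell with the score. In the p53 list, Btg2 (an antiproliferative gene, median 631.0 CPM), Perp (170.4 CPM) and Mdm2 (the ligase that degrades p53, 126.0 CPM) led, and 0 of 14 tested genes were called. Cdkn1a, the cell cycle inhibitor p21, lay apart in tumor 4, at 224.8 CPM against at most 100.1 CPM elsewhere. Its slope on the score was 1.33 ± 0.55 (SE, adjusted p = 0.954, edgeR).

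The wider family and pathway showed the same absence of calls. Of 15 other members of the family, 8 passed the filter, and 0 rose or fell. Bnip3 (median 75.2 CPM) and Bnip3l (41.6 CPM), mitophagy receptors known as hypoxia targets, and Bmf (59.7 CPM), a BH3-only gene tied to loss of attachment, were the most abundant. Their slopes were 0.83 ± 0.49 for Bnip3, 0.42 ± 0.32 for Bnip3l and -0.84 ± 0.43 for Bmf (SE). Bcl2a1a and Bcl2a1d, copies of the gene of the guardian A1, and Bcl2l10 were at or under the floor in all 6 tumors, and reads of the Bcl2a1 copies may be split between them. Bik, a BH3-only gene named after its values were seen, was the 1 gene of the list with an unadjusted p under 0.05, with a slope of -1.21 ± 0.53 (SE, adjusted p = 0.954, edgeR).

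Downstream of the pores, the 14 genes of the mitochondrial death pathway were all filtered in, and 0 were called. The channel genes Vdac2 (median 206.3 CPM) and Vdac1 (148.9 CPM) and the caspase gene Casp6 (59.1 CPM) led. Of the 14 genes, 9 were highest in tumor 1, against 34.2% of all genes. Cycs, the gene of cytochrome c, had 37.3 CPM there against at most 19.4 CPM elsewhere. Casp6 (89.8 against 62.7 CPM) lay apart in tumor 1 as well.

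Upstream, 0 of the 12 genes of the death receptor pathway and of the caspase inhibitors were called. Birc6 (median 169.5 CPM), the TNF receptor gene Tnfrsf1a (156.4 CPM) and Birc5 (survivin, 134.6 CPM) led. Birc3, an inhibitor of apoptosis induced by NF-κB, lay apart in tumor 2, at 45.03 CPM against at most 14.5 CPM. In tumor 1, the adaptor gene Fadd was the highest (29.7 CPM against at most 18.9) and Xiap, which blocks caspases, the lowest (19.2 CPM, median 45.6).

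Genes that set the lifetime of the MCL1 protein were measured too, and 0 of the 5 tested were called. The ubiquitin ligase genes Huwe1 (median 164.5 CPM) and Fbxw7 (111.5 CPM) and the co-chaperone gene Bag3 (76.9 CPM) led. Fbxw7 lay apart in tumor 1, at 31.1 CPM. The sum of the 6 genes was highest in tumor 2, at 540.0 CPM, the tumor with the most Mcl1. Huwe1 (254.6 CPM) and Usp9x (83.7 CPM) were highest there, while Fbxw7 peaked in tumor 6, Bag3 in tumor 1, Btrc in tumor 3 and Usp13 in tumor 5. A link of this sum to Mcl1 was not tested. The median slopes on the score were 0.07 for the other family members, -0.06 for the mitochondrial list, -0.16 for the death receptor list, -0.31 for the MCL1 list, 0.43 for the p53 list and -0.13 for the immediate early list, against -0.04 over all genes and -0.07 over the 9 members.

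The genes whose profile over the 6 tumors was most like that of a member, by Pearson's r of log2(TMM-scaled CPM + 1) among 8866 genes averaging 10 CPM or more, are given as a description. For Mcl1 they were Crtc3 (r = 0.995), Bend7 (0.993) and Foxn3 (0.989), and 48 genes, or 0.541%, exceeded 0.9. For Bax they were Tnfrsf12a (0.976), Trp53bp2 (0.969) and Cmpk1 (0.957), with 13 genes, or 0.147%, above 0.9. For Bcl2l1 they were Prmt2 (0.995), Ap2m1 (0.995) and Tmc6 (0.993), and 678 genes, or 7.65%, exceeded 0.9. Without tumor 1, these last values were 0.853, 0.513 and 0.796, whereas those for Mcl1 stayed at 0.992 to 0.997. The likeness to Bcl2l1 thus rested largely on 1 library.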

How the data were processed

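Epithelial cells of 6 tumors were measured, and all carry the B20-4.1.1 label. The deposited files hold counts, which the authors made without normalization: reads from a 3′ library kit were trimmed with bbduk, aligned to GRCm38/mm10 with STAR 2.5 and counted with HTSeq. Use of molecular identifiers, of strand and the annotation release are not given in the sources used here, so intervals cover counting error only. Reads that HTSeq gave to no gene, in 5 lines per file (16.1 to 41.4%), were left out. From the counts, CPM over all genes and TPM (union exon length, GENCODE M21) were computed. Of 47643 identifiers, 47224 were found in that annotation.

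Genes were kept if at least 3 libraries reached the CPM that equals 10 counts in a library of median size, with a total of at least 15 counts. This rule was modeled on edgeR's filterByExpr, whose function itself was not called. Tests were edgeR's quasi-likelihood test on log2 score, a chi-square test on TMM-scaled counts, exact sign-flip tests (pseudocount 0.5) and exact permutations over 720 orders (pseudocount 1), all with Benjamini-Hochberg adjustment. The slope and chi-square fits were checked on simulated data. With slopes of 3, up or down, planted in 200 genes, the slope test recovered 88.5% of them. Slopes as small as those of the members were not simulated, so this check does not cover them. The members and lists were chosen with earlier results of these data known. Named beside the members were the 3 genes of the score, the 3 highest genes of each list by median CPM, those called, at 0 in all tumors, or with a Dixon ratio above its critical value at a median of at least 10 CPM, and the 3 genes most like Mcl1, Bcl2l1 and Bax. A gene that meets this rule is not reported here.

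Alternatives were DESeq2, its size factors, no filter, other pseudocounts, CPM without the 10 most abundant genes, counts per exon length, the score as a mean of log2 CPM, the code prefix as a term, and each tumor left out. Fits were run with edgeR 4.0.16 and with DESeq2 1.42.0 (R 4.3.3), the rest in Python 3.11.15 with scipy 1.17.1.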

Additional observations from a re-analysis of the deposited data

Results flagged for a closer look

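Among 22 measures of the 10 genes and their ratios, 3 set a tumor apart by Dixon's test (its distance to the next value, relative to the whole range, above the 95% critical value), where chance gives about 1.1. Over all filtered genes the share with a tumor apart was 16.4%, so the count for these measures is not above that background. All 3 concern tumor 1, and they are not independent. The gap was 0.832 of the range for Bcl2l1 (133.7 CPM against at most 75.9), 0.779 for Bad (171.9 CPM against at most 78.1) and 0.746 for the share of Bcl2l1 in the guardian counts (34.02% against at most 20.5%). Tumor 1 lay apart as the highest for 10.7% of all filtered genes, and its part in these values was not tested.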

How the results depend on the processing

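The smallest slope that 6 tumors can resolve was not determined. No member was called even where its slope was well above its standard error (-1.31 ± 0.47 for Bad with the code prefix as a term). Pmaip1, at 1 to 11 counts, is limited by depth. The number of genes called on the score, 0 with edgeR, was 15 with DESeq2, 10 without the filter on low counts, 3 with the score as a mean of log2 CPM and 0 to 2 with a tumor left out (2 without tumor 1). In all of these 0 members were called. The cause of these differences was not tested. Of 99 alternative slopes of members, 13 changed sign, none of them called. Per exon length, the median share of Mcl1 in guardians was 64.9% (48.2% by counts), the median ratio of effectors to guardians 0.274 (0.135) and that of BH3-only genes to guardians 0.913 (0.664), by construction, since the genes differ in length. Of 90 alternative medians of a member's level, 86 moved by less than 1 SD, and the 4 others, for Bcl2, Bak1, Bcl2l11 and Bbc3, moved when the 10 most abundant genes were left out of the totals. Pairs with 1 gene higher in every tumor numbered 33 to 40 with a tumor left out. No paired comparison of groups of tumors was possible because the labels hold 1 group.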
